A study of Arabidopsis thaliana with 12 samples.

Results

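The transcripts of 35 genes of the major intrinsic protein family of *Arabidopsis thaliana*, the aquaporins, were examined in WT and *pi4kß1ß2* seedlings, in roots and in leaves. The genes were taken by their gene identifiers as the complete PIP (13 genes), TIP (10), NIP (9) and SIP (3) subfamilies, out of 37336 identifiers counted in every library. Their levels were not a criterion, but earlier results of these data were known when they were chosen. The libraries came from WT Col-0 and from *pi4kß1ß2*, a double mutant with T-DNA insertions in both genes of the ß type phosphatidylinositol 4-kinases, *PI4Kß1* and *PI4Kß2*. Each of the 4 groups (WT roots, *pi4kß1ß2* roots, leaves labelled WT and leaves labelled *pi4kß1ß2*) had 3 libraries from seedlings 7 days old, grown without treatment on diluted Murashige-Skoog agar with sucrose. The study describes its root samples as RNA pooled from many plants in each biological repetition, and the double mutant is a single line. Whole organs were sampled, so fewer cells of a type and less RNA per cell cannot be told apart in any value given here.

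Aquaporins are channel proteins that let water and some small uncharged molecules cross membranes. PIPs lie mainly in the plasma membrane, TIPs in the tonoplast that encloses the vacuole, and SIPs in the endoplasmic reticulum, while NIPs carry metalloids such as boric acid and other small solutes besides water. In roots, PIPs and TIPs are known for the passage of water between soil, cortex and vessels and for its exchange between cytoplasm and vacuole, and several PIPs are withdrawn from or delivered to the membrane by vesicle traffic.

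The pore of an aquaporin is lined by a pair of short loops that each hold asparagine and proline followed in most members by alanine. The coding sequences of all 35 genes, read from the TAIR10.1 genome and its RefSeq models, held at least 2 such asparagine-proline pairs. The stretches around the first and the last pair are shown for 4 genes on which the results turn and for the most abundant SIP, with the asparagine codon, the proline codon and the codon after them in capitals.
PIP2;4 first: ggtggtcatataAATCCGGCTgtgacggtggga
PIP2;4 last: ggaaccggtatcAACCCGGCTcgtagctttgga
TIP2;3 first: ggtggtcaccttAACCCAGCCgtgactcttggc
TIP2;3 last: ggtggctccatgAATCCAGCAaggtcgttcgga
NIP1;2 first: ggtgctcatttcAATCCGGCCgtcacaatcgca
NIP1;2 last: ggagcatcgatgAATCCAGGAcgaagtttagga
NIP5;1 first: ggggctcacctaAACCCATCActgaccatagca
NIP5;1 last: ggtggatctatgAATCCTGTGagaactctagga
SIP1;1 first: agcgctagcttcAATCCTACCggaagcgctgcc
SIP1;1 last: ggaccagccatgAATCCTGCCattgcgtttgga
Both codons after the pairs are alanine codons in *PIP2;4* and *TIP2;3*. They are a serine codon and a valine codon in *NIP5;1*, the boric acid channel of roots, a glycine codon at the last pair of *NIP1;2* and a threonine codon at the first pair of *SIP1;1*.

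*PIP2;2* and *PIP2;3* lie next to each other on chromosome 2 of TAIR10.1 (15613368 to 15615022 on the minus strand and 15617635 to 15619155 on the plus strand) and are close copies. Over 858 coding bases they were 94.8% identical, with 45 differing positions and a longest identical run of 242 bases. The window of 60 bases with the most differences is shown first for each gene, with the 10 differing bases in capitals, and then the first 75 bases of the identical run, which is the length of a read in this study.
PIP2;2: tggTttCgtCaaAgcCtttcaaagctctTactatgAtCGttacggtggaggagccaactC
PIP2;3: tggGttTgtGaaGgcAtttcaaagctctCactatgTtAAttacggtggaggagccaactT
Both: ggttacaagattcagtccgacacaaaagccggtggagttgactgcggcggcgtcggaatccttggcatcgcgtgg
Of the 75-base words of the 2 transcripts, 15.1% and 16.8% were found in the other, and reads with several hits were left out of the counts. The levels of *PIP2;2* and *PIP2;3* are therefore uncertain. Words found in any other gene model or elsewhere in the genome made up 74.3% of the *NIP2;1* transcript, 36.9% of *TIP3;2* and 19.5% of *TIP3;1*. They made up at most 4.13% of each of the other 30 transcripts. The words of *TIP3;1* (shared with AT1G73200) and *TIP3;2* (with AT1G05333 and AT1G17820) were listed for other gene models only. Models that overlap at the same place share words without giving a read several hits.

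The gene counts of a library summed to 38116716 at the lowest and 46577151 at the highest. In roots, *PI4Kß2* was 2.10-fold lower in *pi4kß1ß2* (log2 difference -1.07, SE 0.08, adjusted p = 9.83e-05) and *PI4Kß1* was 1.54-fold lower (-0.63, SE 0.05, adjusted p = 0.000103, edgeR's quasi-likelihood test), with no overlap between the groups. In a fit of all 12 libraries *PI4Kß2* was not called in roots (adjusted p = 0.055). The labels of the root libraries held, since the summed level of 6 leaf mesophyll markers in each of them was 0.196% to 0.711% of the leaf mean. The leaf libraries held more of the root markers. Their summed root hair markers were 8.65% to 33.4% of the WT root mean, and their root cap markers 10% to 31.5%. Among the leaf libraries, 2 went against their genotype labels. The library labelled WT leaf replicate 2 had 4.67 normalized CPM (CPM, counts scaled to library size, with TMM factors over all libraries) of *PI4Kß2*, below all 3 libraries labelled *pi4kß1ß2* leaf. The library labelled *pi4kß1ß2* leaf replicate 1 had 10.98, against 11.8 and 12.1 in the WT leaf replicates 1 and 3 and 6.32 and 6.71 in the *pi4kß1ß2* leaf replicates 2 and 3. Leaf groups are therefore named by label below, and their results are given with and without these 2 libraries. In place of a growth stage, the label of WT leaf replicate 3 carries planting and harvest dates.

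Aquaporins took 0.756%, 0.78% and 0.867% of all gene counts for WT roots and 0.542%, 0.504% and 0.529% for *pi4kß1ß2* roots, in the order of the replicate numbers, which is kept throughout. The groups did not overlap. The PIP share averaged 0.458% ± 0.0327 (SD, n = 3) in WT against 0.281% ± 0.0138 in *pi4kß1ß2* roots, and the TIP share was 0.293% ± 0.0256 and 0.188% ± 0.00962. The NIP share went the other way, with 0.0326% ± 0.00156 in WT and 0.0400% ± 0.00126 in *pi4kß1ß2* roots. The SIP share was the smallest of the 4, at 0.0175% ± 0.000887 and 0.0160% ± 0.000582.

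Levels were compared between genes only per length, as reads scaled to exon kilobases and library size (RPKM), from the normalized CPM. In WT roots, the tonoplast channels *TIP1;2* (776 ± 68.1 RPKM) and *TIP1;1* (639 ± 60.3 RPKM) led, followed by *PIP2;1* (460 ± 29.9 RPKM) and *PIP1;2* (435 ± 32.0 RPKM), which did not differ beyond their SDs (n = 3). *PIP1;3*, *PIP2;7*, *PIP1;1*, *PIP2;2* and *TIP2;1* lay between 270 and 367 RPKM on average. *NIP1;1* (120 ± 7.92 RPKM) was the highest NIP and *SIP1;1* (65.8 ± 2.83 RPKM) the highest SIP. In *pi4kß1ß2* roots *TIP1;2* and *TIP1;1* still ranked first and second, at 494 ± 26.8 and 395 ± 24.6 RPKM, and *PIP1;2*, at 326 ± 30.8 RPKM, stood above *PIP2;1* at 253 ± 2.32 RPKM.

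The first comparison asked which aquaporin transcripts differ between the roots of the genotypes. Of the 27 aquaporin genes that passed the filter on low counts (1 CPM or more in 3 or more root libraries), 16 were lower and 3 were higher in *pi4kß1ß2* roots, and 8 were not called (edgeR's quasi-likelihood test, Benjamini-Hochberg adjustment over 19694 genes, adjusted p under 0.05). Over all genes tested, 15.2% were called lower and 11.3% higher, 26.6% in all. The median log2 difference was -0.41 over the 27 aquaporin genes and 0.006 over all genes. A level lower by at least 1 on the log2 scale was found for 7 aquaporin genes, and for 2.58% of all genes. All 3 *pi4kß1ß2* libraries lay below all 3 WT libraries for 17 of the 27 genes, against 23.4% of all genes, and above them for 3, against 21.1%.

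**Figure D1:**
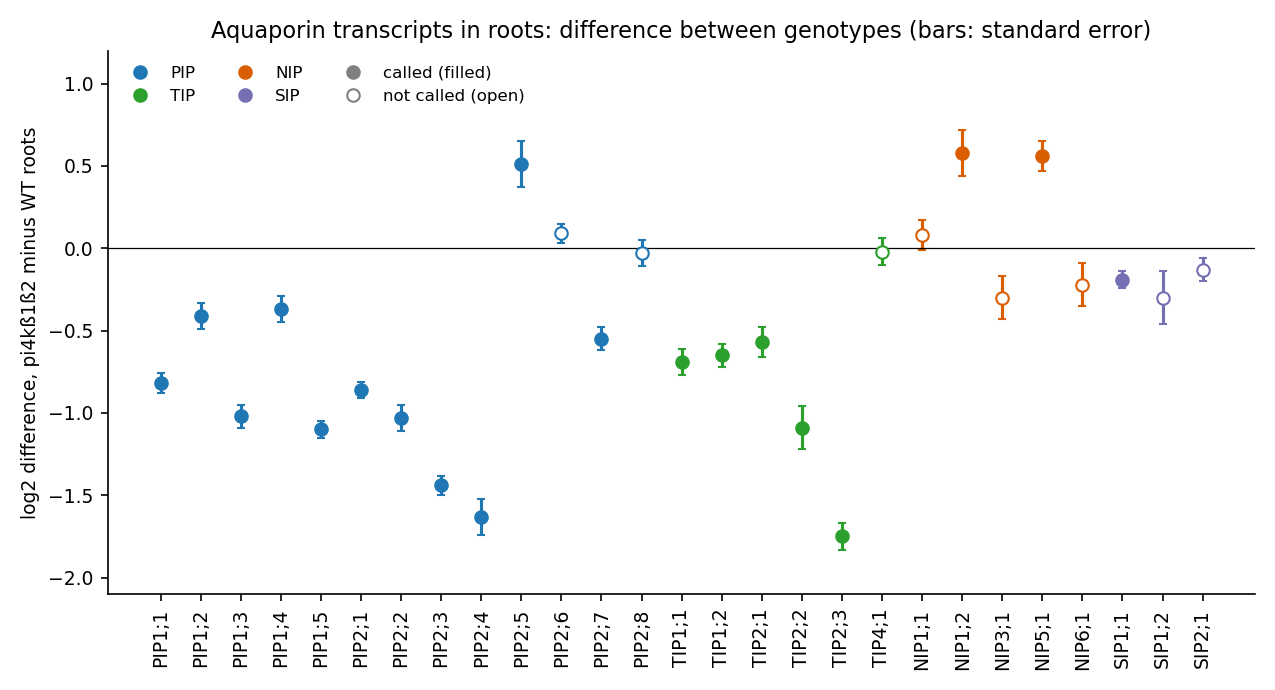
Log2 difference between *pi4kß1ß2* and WT roots for the 27 aquaporin genes tested, in the order of the subfamilies, with the standard error as bars. Filled points passed an adjusted p of 0.05 and open points did not. Most PIP and TIP points lie below 0, down to -1.75 for *TIP2;3*, and the 3 genes called higher are *PIP2;5*, *NIP1;2* and *NIP5;1*.

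All 5 PIP1 genes were lower in *pi4kß1ß2* roots. PIP1 proteins are water channels that reach the plasma membrane mostly in complexes with PIP2 proteins, and some also carry carbon dioxide or hydrogen peroxide. *PIP1;5* (AT4G23400) had 127, 134 and 139 normalized CPM in WT against 63.6, 59.6 and 63.8 in *pi4kß1ß2* roots. Its groups were far apart, a log2 difference of -1.10 (SE 0.05, adjusted p = 1.51e-05, edgeR). *PIP1;3* (AT1G01620) had 550, 551 and 604 normalized CPM in WT and 308, 272 and 261 in *pi4kß1ß2* roots. This was a log2 difference of -1.02 (SE 0.07, adjusted p = 9.01e-05, edgeR), again without overlap. *PIP1;1* (AT3G61430) had 462, 480 and 538 normalized CPM in WT and 274, 283 and 277 in *pi4kß1ß2* roots, a log2 difference of -0.82 (SE 0.06, adjusted p = 9.83e-05, edgeR). The mutant libraries of *PIP1;1* lay close together and the WT libraries were more spread. *PIP1;2*, known for water and carbon dioxide passage in leaves as well as for root water transport, and *PIP1;4* fell by less, by 0.41 and 0.37 on the log2 scale (adjusted p = 0.00829 and 0.0108, edgeR). Even for these, every mutant library was below every WT library.

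Of the 8 PIP2 genes, which encode the more active water channels, 5 were lower, 1 was higher and 2 were not called. *PIP2;4* (AT5G60660), found mostly in roots, had 59.8, 68.6 and 77.9 normalized CPM in WT and 23.6, 20.4 and 22.6 in *pi4kß1ß2* roots. Every WT library had more than 2-fold the level of every mutant library, and the log2 difference was -1.63 (SE 0.11, adjusted p = 0.000135, edgeR), or 3.09-fold. *PIP2;3* (AT2G37180) had 46.5, 49.8 and 53.0 normalized CPM in WT and 18.1, 18.5 and 18.3 in *pi4kß1ß2* roots, a log2 difference of -1.44 (SE 0.06, adjusted p = 9.44e-06, edgeR). Its close copy *PIP2;2* (AT2G37170) had 370, 412 and 455 normalized CPM in WT and 209, 206 and 190 in *pi4kß1ß2* roots, a log2 difference of -1.03 (SE 0.08, adjusted p = 0.000145, edgeR). Neither copy had overlapping groups, with the reads that the sequences above cannot tell apart left out of both.

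*PIP2;1* (AT3G53420), a main water channel of roots and of guard cells, had 677, 722 and 771 normalized CPM in WT and 399, 393 and 400 in *pi4kß1ß2* roots. The mutant libraries differed by less than the WT libraries, and the log2 difference was -0.86 (SE 0.05, adjusted p = 5.23e-05, edgeR). *PIP2;7* (AT4G35100) had 525, 532 and 593 normalized CPM in WT and 410, 351 and 364 in *pi4kß1ß2* roots, a log2 difference of -0.55 (SE 0.07, adjusted p = 0.00131, edgeR). *PIP2;5* (AT3G54820), one of the few PIP genes known to rise on drying, was the exception in the subfamily. It had 7.81, 7.99 and 9.19 normalized CPM in WT and 14.3, 10.8 and 10.4 in *pi4kß1ß2* roots, a log2 difference of 0.51 (SE 0.14, adjusted p = 0.0301, edgeR). The groups did not overlap, but *pi4kß1ß2* root replicate 1 stood above the other mutant libraries. The call was lost without WT root replicate 1 (log2 0.47, adjusted p = 0.0958) and without WT root replicate 2 (0.48, 0.108), in a range of adjusted p from 0.00398 to 0.108 over the alternatives. Root runs with a library left out, here and below, called fewer genes over all genes tested too. They called 1415 to 1845 higher and 2333 to 2495 lower, against 2233 and 3000 in the main fit. *PIP2;6* (log2 difference 0.09, SE 0.06, adjusted p = 0.32) and *PIP2;8* (-0.03, SE 0.08, adjusted p = 0.83) were not called by edgeR.

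**Figure D2:**
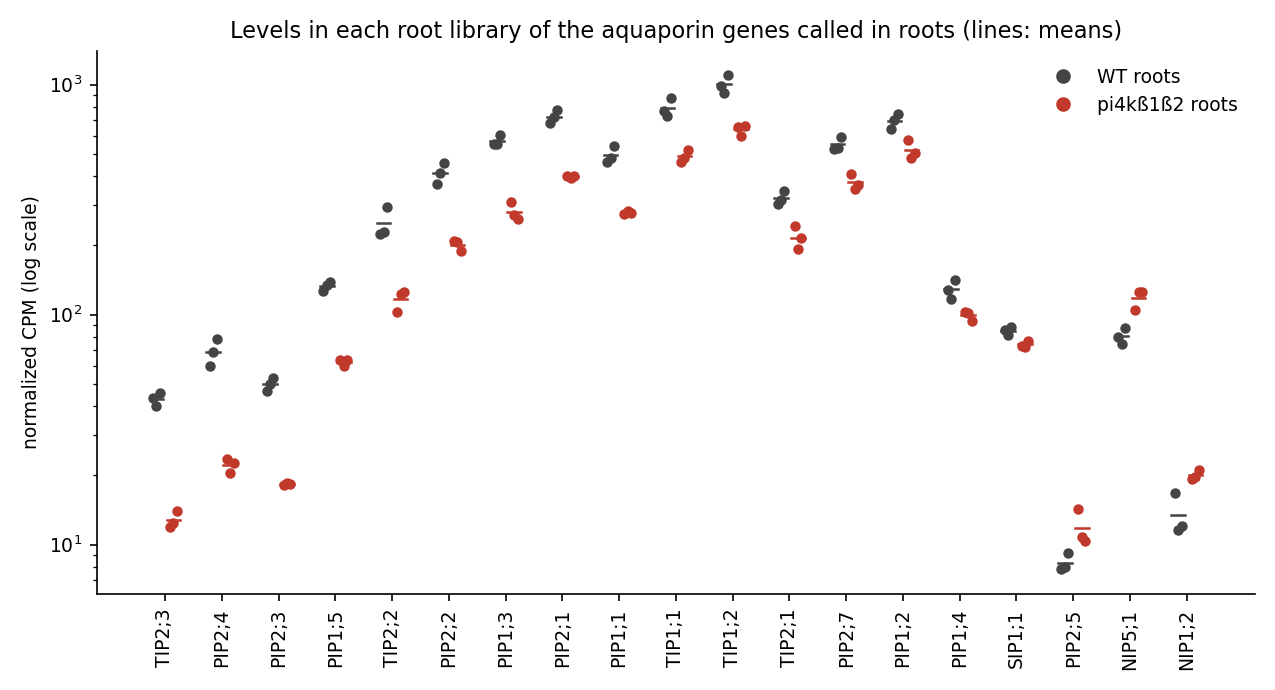
Normalized CPM, on a log axis, of the 19 aquaporin genes called in roots in each WT (grey) and *pi4kß1ß2* (red) root library, with group means as lines, ordered by the difference. The red points lie below the grey points for the 16 genes from *TIP2;3* to *SIP1;1* and above them for *PIP2;5*, *NIP5;1* and *NIP1;2*.

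Among the TIPs, 5 of the 6 genes tested were lower in *pi4kß1ß2* roots and none was higher. *TIP2;3* (AT5G47450), a tonoplast channel of roots that also carries ammonia, showed the largest difference of the family. It had 43.4, 39.9 and 45.5 normalized CPM in WT and 11.9, 12.5 and 13.9 in *pi4kß1ß2* roots. Each mutant library was thus far below each WT library, with a log2 difference of -1.75 (SE 0.08, adjusted p = 1.34e-05, edgeR), or 3.35-fold. *TIP2;2* (AT4G17340) had 225, 229 and 293 normalized CPM in WT and 103, 122 and 125 in *pi4kß1ß2* roots, a log2 difference of -1.09 (SE 0.13, adjusted p = 0.00245, edgeR). WT root replicate 3 was the highest library of *TIP2;2*, but the groups were apart without it.

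The most abundant TIPs fell by less. *TIP1;1* (AT2G36830), the channel long used to mark the tonoplast of lytic vacuoles, had 769, 729 and 874 normalized CPM in WT and 462, 481 and 522 in *pi4kß1ß2* roots, a log2 difference of -0.69 (SE 0.08, adjusted p = 0.0007, edgeR). *TIP1;2* (AT3G26520), its close relative, had 987, 921 and 1095 normalized CPM in WT and 654, 598 and 661 in *pi4kß1ß2* roots, a log2 difference of -0.65 (SE 0.07, adjusted p = 0.000585, edgeR). Both were lower in every mutant library than in any WT library. *TIP2;1* (AT3G16240) had 301, 316 and 344 normalized CPM in WT and 242, 192 and 215 in *pi4kß1ß2* roots, a log2 difference of -0.57 (SE 0.09, adjusted p = 0.00419, edgeR), which was not called in a fit of all 12 libraries (adjusted p = 0.0597). *TIP4;1* (AT2G25810), a TIP found in roots, had 74.2, 71.4 and 82.9 normalized CPM in WT and 74.2, 68.2 and 82.3 in *pi4kß1ß2* roots. Its groups overlapped over nearly the whole range, with a log2 difference of -0.02 (SE 0.08, adjusted p = 0.889, edgeR).

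Of the 5 NIP genes tested, 2 were higher in *pi4kß1ß2* roots, none was lower and 3 were not called. *NIP5;1* (AT4G10380, chromosome 4 from 6431161 to 6435396), which takes up boric acid into roots when boron is scarce, had 79.7, 74.7 and 87.8 normalized CPM in WT and 105, 125 and 125 in *pi4kß1ß2* roots. All mutant libraries were above all WT libraries, and the log2 difference was 0.56 (SE 0.09, adjusted p = 0.00429, edgeR). The call was lost when all 12 libraries were fitted together, at a log2 difference of 0.55. The adjusted p was 0.398 there (from 1.70e-08 to 0.398 over the alternatives). Dispersions in that fit were estimated from leaf as well as root libraries. Over all genes tested, that fit called 638 higher and 1706 lower in roots, against 2233 and 3000 with root libraries alone. *NIP1;2* (AT4G18910), a NIP that carries aluminium malate, had 16.7, 11.6 and 12.1 normalized CPM in WT and 19.3, 19.7 and 21.1 in *pi4kß1ß2* roots, a log2 difference of 0.58 (SE 0.14, adjusted p = 0.027, edgeR). Without WT root replicate 2 or 3, or without any 1 of the 3 *pi4kß1ß2* root libraries, it was no longer called, with log2 differences from 0.48 to 0.60 and adjusted p from 0.0651 to 0.0823. *NIP1;1* (AT4G19030), which lets arsenite in and is the most abundant NIP, had 161, 177 and 183 normalized CPM in WT and 209, 168 and 172 in *pi4kß1ß2* roots. Its groups overlapped, with a log2 difference of 0.08 (SE 0.09, adjusted p = 0.572, edgeR). *NIP3;1* (log2 difference -0.30, SE 0.13) and *NIP6;1* (-0.22, SE 0.13) were not called (adjusted p = 0.125 and 0.28, edgeR).

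The messenger of *NIP5;1* is known for a start codon followed directly by a stop codon in its leader, at which ribosomes stall and the messenger is cut when boron is ample. The deposited counts cover the whole gene and cannot show such cuts. The start-stop sequence ATGTAA, read on the transcript strand only, occurred at 2 places in the annotated *NIP5;1* leader of 886 bases, 312 and 122 bases before the start codon, and is shown in capitals.
NIP5;1 at 312: atctttcaaagcATGTAAatttaagtccta
NIP5;1 at 122: aaatttcaaatcATGTAAatttcgtctcta
Of the 563 genes with a leader of at least this length, 24% held ATGTAA at least once and 2.84% at least at 2 places in the last 886 bases before the start codon. Among the aquaporin genes, only *PIP2;5* held it besides, at 1 place in a leader of 358 bases, where 7.88% of 5103 genes did.
PIP2;5 at 217: taaaaaaaacccATGTAAaatgatcattaa

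Of the 3 SIP genes, 1 was lower in roots and 2 were not called. *SIP1;1* (AT3G04090) had 85.4, 81.2 and 88.5 normalized CPM in WT and 73.0, 72.6 and 76.9 in *pi4kß1ß2* roots, a log2 difference of -0.19 (SE 0.05, adjusted p = 0.0213, edgeR). The groups were apart by a small step, and the call was lost without WT root replicate 1 (adjusted p = 0.0572) or 3 (0.0531), without *pi4kß1ß2* root replicate 1 (0.062) or 2 (0.0657) in a fit of all 12 libraries (0.0618) and with the likelihood ratio test (0.0811), the highest of the alternatives. *SIP1;2* (log2 difference -0.30, SE 0.16, adjusted p = 0.208) and *SIP2;1* (-0.13, SE 0.07, adjusted p = 0.201) were not called by edgeR. Opposite to *SIP2;1* lay 69.8% of its counts on both strands, 7828 to 9419 in each leaf library against 686 to 1364 of its own.

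The remaining 8 genes did not pass the filter in roots. *NIP4;1* had no count in any library, and *TIP5;1* had 1 count in WT leaf replicate 2 and none elsewhere. Up to 3 counts in a library are taken as what a level of 0 allows, so both were at the floor in every library. *NIP4;2*, like *NIP4;1* a NIP of pollen, reached 42 counts in roots and 7 in leaves, and *NIP7;1*, a boric acid channel of anthers, 13 in roots and 25 in leaves. *NIP2;1*, a root NIP that releases lactic acid under low oxygen, reached 24 counts in roots and 12 in leaves. *TIP1;3*, a TIP of pollen, reached 6 counts in roots. *TIP3;2*, of the seed vacuole, reached 15 counts in roots and 11 in leaves. *TIP3;1*, the other TIP of seeds, had 0.174, 0.233 and 0.0395 normalized CPM in WT against 1.96, 1.10 and 0.369 in *pi4kß1ß2* roots. Beside it, the summed level of 3 seed storage markers was 0.0198 to 2.12 in WT and 0.562 to 3.55 in *pi4kß1ß2* roots. For *NIP2;1*, *TIP3;1*, *TIP3;2* and *TIP5;1*, 58.2% to 99.9% of the counts on both strands lay opposite to the gene, so most reads there do not come from its own strand.

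Genes that work with aquaporins were compared from lists of other transporters and regulators. The counts called in each list stand beside 11.3% higher and 15.2% lower over all genes tested in roots. Calls lost in the fit of all 12 libraries stand beside fewer calls over all genes. That fit called 638 higher and 1706 lower in roots, against 2233 and 3000 with root libraries alone. Of 3 boron exporters, *BOR2*, known for root growth under low boron, was 1.84-fold higher in *pi4kß1ß2* roots (log2 difference 0.88, SE 0.09, adjusted p = 0.000717, edgeR), a call lost in a fit of all 12 libraries (adjusted p = 0.259). *BOR1* (0.25, adjusted p = 0.139) and *BOR4* (-0.13, adjusted p = 0.218) were not called. Of the 5 ammonium and urea transporters tested, *AMT1;2* was higher by 0.73 (SE 0.12, adjusted p = 0.00525) and *AMT2;1* by 0.33 (SE 0.07, adjusted p = 0.0104) in edgeR's test, and none was lower. Both calls were lost in the fit of all 12 libraries (adjusted p = 0.229 and 0.204). The proton pumps *AHA2* (0.44, adjusted p = 0.0087) and *AHA1* (0.16, adjusted p = 0.0241) of the plasma membrane were higher, while the 3 tonoplast pump genes tested were not called. The call of *AHA2* was lost in the fit of all 12 libraries (adjusted p = 0.273) and that of *AHA1* without *pi4kß1ß2* root replicate 2 (0.091). Of the 9 genes for the regulation and traffic of PIPs that were tested, none was higher and 2 were lower by edgeR, where 15.2% of all genes were lower: *RMA3* (-0.28, adjusted p = 0.0496), a relative of the ubiquitin ligase that holds PIP2;1 back in the endoplasmic reticulum, and the receptor kinase *QSK1* (-0.21, adjusted p = 0.0149). *RMA3* was not called without *pi4kß1ß2* root replicate 3 (adjusted p = 0.137), nor *QSK1* in the fit of all 12 libraries (0.438). The syntaxins *SYP121* (-0.05, adjusted p = 0.902) and *SYP61* (0.09, adjusted p = 0.232), which bring PIPs to the membrane, were not called. Of the 7 osmotic and ABA response genes tested, *KIN1* (-1.28, adjusted p = 0.0425) and *COR47* (-0.61, adjusted p = 0.00283) were lower and *P5CS1*, of proline synthesis, was higher (0.30, adjusted p = 0.0274) by edgeR. *P5CS1* was not called in the fit of all 12 libraries (adjusted p = 0.717), nor *KIN1* without *pi4kß1ß2* root replicate 2 (0.131).

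Markers of root cell types also differed between the root groups, where 11.3% of all genes were called higher and 15.2% lower. The summed level of 5 endodermis markers was 355 to 386 normalized CPM in WT and 276 to 293 in *pi4kß1ß2* roots, with 3 genes called lower and 1 higher, and that of 5 vascular markers was 237 to 243 and 131 to 145, with 3 genes lower (*SUC2* by 1.79 on the log2 scale). The sum of 3 root cap markers was 14.5 to 17.5 in WT and 21.9 to 22.3 in *pi4kß1ß2* roots, with 2 genes higher. For 6 root hair markers it was 186 to 226 and 215 to 294, with 1 gene higher (*PRP3*). Of the 6 leaf mesophyll markers, with sums of 198 to 376 and 104 to 192, 2 were lower in *pi4kß1ß2* roots. In the fit of all 12 libraries the calls of *CASP1* (adjusted p = 0.238), *ESB1* (0.249) and *PER64* (0.331) of the endodermis, *SMB* (0.457) and *BRN1* (0.349) of the root cap, *PRP3* (0.369) and the vascular *XCP1* (0.0649) were lost. As given above, that fit called fewer genes in roots over all genes tested too. The endodermis gene *SCR* was lost with the likelihood ratio test (0.0952), and the mesophyll genes *GAPA* (0.123) and *PSBR* (0.141) without *pi4kß1ß2* root replicate 3. The part of the make-up of the roots in the aquaporin differences was not tested.

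In leaves, the comparison by label called fewer genes. Of the 28 aquaporin genes tested, 1 was higher and 2 were lower in the libraries labelled *pi4kß1ß2*, where 3.72% and 6.76% of all 19470 genes were (10.5% in all, edgeR), and the median log2 difference was -0.16. The groups did not overlap for 2 genes on the higher side (17.8% of all genes) and 7 on the lower side (19.5%). Without the 2 libraries that went against their labels, 2 were higher and 9 were lower, and the shares over all genes were 13% and 14% (27% in all).

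*NIP1;2* had 12.8, 15.4 and 14.2 normalized CPM by the WT leaf label against 20.05, 20.6 and 20.6 by the *pi4kß1ß2* leaf label. The groups did not overlap, and the log2 difference of 0.51 (SE 0.09, adjusted p = 0.0247, edgeR) was close to that in roots. *TIP1;1* had 423, 386 and 394 normalized CPM in the WT and 324, 259 and 256 in the *pi4kß1ß2* leaf libraries, a log2 difference of -0.54 (SE 0.11, adjusted p = 0.0354, edgeR). *NIP6;1* (AT1G80760), which moves boric acid into young shoot parts, had 11.2, 9.01 and 8.97 normalized CPM in the WT and 5.61, 4.998 and 6.53 in the *pi4kß1ß2* leaf libraries. Its groups were clearly apart, with a log2 difference of -0.79 (SE 0.15, adjusted p = 0.0313, edgeR). The calls of *NIP1;2* and *TIP1;1* were each lost without WT leaf replicate 1 or 3 or without *pi4kß1ß2* leaf replicate 2 or 3, with log2 differences from 0.44 to 0.51 and from -0.56 to -0.48. That of *NIP6;1* was lost when any library but WT leaf replicate 2 was left out (-0.89 to -0.68). These runs called fewer genes over all genes tested too. Without WT leaf replicate 1, 18 were higher and 37 lower, and without WT leaf replicate 3, 20 and 48. Without *pi4kß1ß2* leaf replicate 1, 2 or 3 they were 489 and 842, 4 and 8, and 291 and 455. The main fit called 724 and 1317. Without the 2 libraries that went against their labels, all 3 were called, at 0.59 (adjusted p = 0.00686), -0.68 (0.00196) and -0.82 (0.0214). On the strand opposite to *NIP6;1* lay 47.8% of its counts on both strands.

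*NIP5;1* had 23.8, 49.5 and 23.1 normalized CPM by the WT leaf label against 17.3, 46.3 and 46.2 by the *pi4kß1ß2* leaf label, with a log2 difference of 0.17 (SE 0.47, adjusted p = 0.852, edgeR). The 2 libraries that went against their labels each fell among the other group. Without them the log2 difference was 0.97 (SE 0.06, adjusted p = 0.000767, the lowest over the alternatives, which reached 0.992). In the same comparison *PIP1;4*, *PIP1;5*, *PIP2;2*, *PIP2;3*, *PIP2;6*, *TIP1;2* and *SIP1;1* were called lower besides, with log2 differences between -0.46 and -0.24. Among the endodermis markers *PER64* (0.77, adjusted p = 0.0116) and *CASP1* (0.52, 0.0297) were called higher and *SCR* (-0.48, 0.00536) lower by edgeR. *MYB36* (0.50, 0.116) and *ESB1* (0.35, 0.0525) moved up without a call. Unlike the others, *SCR* was not called between WT roots and leaves labelled WT (0.02, adjusted p = 0.766, edgeR). The root-rich *TIP4;1* (0.55) and *NIP1;1* (0.51) moved up and *TIP2;3* (-0.18) and *PIP2;4* (-0.78) down, none of them called. The part of root tissue in the *NIP5;1* difference was not tested.

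The genotype difference in roots was set against that in leaves in 1 fit of all 12 libraries. Of 28 aquaporin genes, the difference was more negative in roots for 12 and more positive for 1 (edgeR's quasi-likelihood test, adjusted p under 0.05), where 12.1% and 10.3% of all 20765 genes were called (22.4% in all). Among the called genes *TIP2;3* had the largest difference, -1.62 on the log2 scale (SE 0.16, adjusted p = 0.000448). In leaves its level was 3.50, 4.11 and 3.48 normalized CPM by the WT label and 3.94, 3.30 and 2.91 by the *pi4kß1ß2* label, and the groups overlapped. *PIP2;3* followed with -1.35 (SE 0.25, adjusted p = 0.00537) and *PIP1;3* with -1.33 (SE 0.23, adjusted p = 0.00398). Leaves labelled WT had 27.7, 25.3 and 26.6 normalized CPM of *PIP2;3* and leaves labelled *pi4kß1ß2* 34.3, 21.8 and 18.4. For *PIP1;3* they had 428, 372 and 404 and 663, 425 and 401. In both genes *pi4kß1ß2* leaf replicate 1 was the highest leaf library. *TIP3;1*, with few counts, had a wider difference of 3.24 (SE 1.28, adjusted p = 0.0972) that edgeR's quasi-likelihood test did not call, whereas DESeq2 (3.27, adjusted p = 0.0363) and the likelihood ratio test (3.25, 0.0424) did.

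For *PIP2;1* the difference between organs was -1.27 (SE 0.23, adjusted p = 0.00399, edgeR), with 454, 503 and 448 normalized CPM in leaves labelled WT and 821, 564 and 479 in those labelled *pi4kß1ß2*. *TIP2;2* (-1.07, SE 0.22, adjusted p = 0.00825) had 71.8, 74.7 and 64.8 and 86.4, 63.6 and 57.3 normalized CPM in the leaf libraries. *PIP1;5* (-1.04, SE 0.20, adjusted p = 0.00646) had 214, 164 and 224 and 238, 167 and 171. None of these groups of leaf libraries was apart. *PIP1;1* (-0.89, SE 0.17, adjusted p = 0.00489) had 262, 283 and 254 normalized CPM in leaves labelled WT and 342, 248 and 246 in those labelled *pi4kß1ß2*. *PIP2;2* (-0.71, SE 0.14, adjusted p = 0.00692) had 120, 151 and 120 and 110, 104 and 98.8 in the same order, so that its leaf groups did not overlap and lay in the direction of the roots. These 8 genes kept their calls under every alternative. Without the 2 libraries that went against their labels, the value was -1.58 for *TIP2;3*, -1.07 for *PIP2;1* and -1.01 for both *PIP2;3* and *PIP1;3*. It was -0.92 for *TIP2;2*, -0.79 for *PIP2;2*, -0.76 for *PIP1;1* and -0.73 for *PIP1;5*.

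The other 5 calls of this test were lost under at least 1 alternative. *PIP2;4* (-1.07, SE 0.29, adjusted p = 0.0265, edgeR) had 4.85, 5.30 and 8.80 normalized CPM in leaves labelled WT and 4.86, 4.41 and 3.59 in those labelled *pi4kß1ß2*. It was not called without the 2 libraries that went against their labels (-0.86, adjusted p = 0.0887, the highest of a range from 0.00316) or without any 1 of WT leaf replicate 1, WT root replicate 3, *pi4kß1ß2* leaf replicates 1 and 2 and *pi4kß1ß2* root replicate 2 (-1.05 to -0.91). *SIP1;2* (-0.93, SE 0.29, adjusted p = 0.041) had 3.61, 2.92 and 3.45 normalized CPM in leaves labelled WT and 6.73, 4.26 and 4.49 in those labelled *pi4kß1ß2*. It was likewise not called without those 2 libraries (-0.61, adjusted p = 0.0771), nor when any single library but WT root replicate 3, *pi4kß1ß2* root replicate 1 and *pi4kß1ß2* leaf replicates 2 and 3 was left out. *TIP2;1* (-0.76, SE 0.24, adjusted p = 0.048) had 931, 662 and 974 and 1209, 858 and 858 normalized CPM in the leaf libraries, and *PIP2;7* (-0.64, SE 0.19, adjusted p = 0.0356) had 532, 477 and 509 and 676, 473 and 464. *TIP2;1* was not called with scaling by library size alone (-0.66, adjusted p = 0.0511), without a filter on low counts (-0.78, 0.0535) or when any library but WT leaf replicate 3 and *pi4kß1ß2* leaf replicates 2 and 3 was left out (-0.87 to -0.57), and *PIP2;7* without WT leaf replicate 1, 2 or 3, WT root replicate 2 or 3 or *pi4kß1ß2* root replicate 2 or 3 (-0.69 to -0.60). *PIP2;5* was the 1 gene with a more positive difference in roots (0.65, SE 0.20, adjusted p = 0.0402), with 15.4, 15.9 and 12.5 normalized CPM in leaves labelled WT and 14.6, 12.7 and 12.3 in those labelled *pi4kß1ß2*. It was not called without a filter on low counts (0.63, adjusted p = 0.0535) or when any library but WT leaf replicate 3, WT root replicate 3, *pi4kß1ß2* leaf replicate 1 and *pi4kß1ß2* root replicate 3 was left out (0.47 to 0.69). Without the 2 libraries that went against their labels, 11 genes were more negative and 2 more positive in roots, and 18.8% and 13.4% of all genes (32.2% in all).

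**Figure D3:**
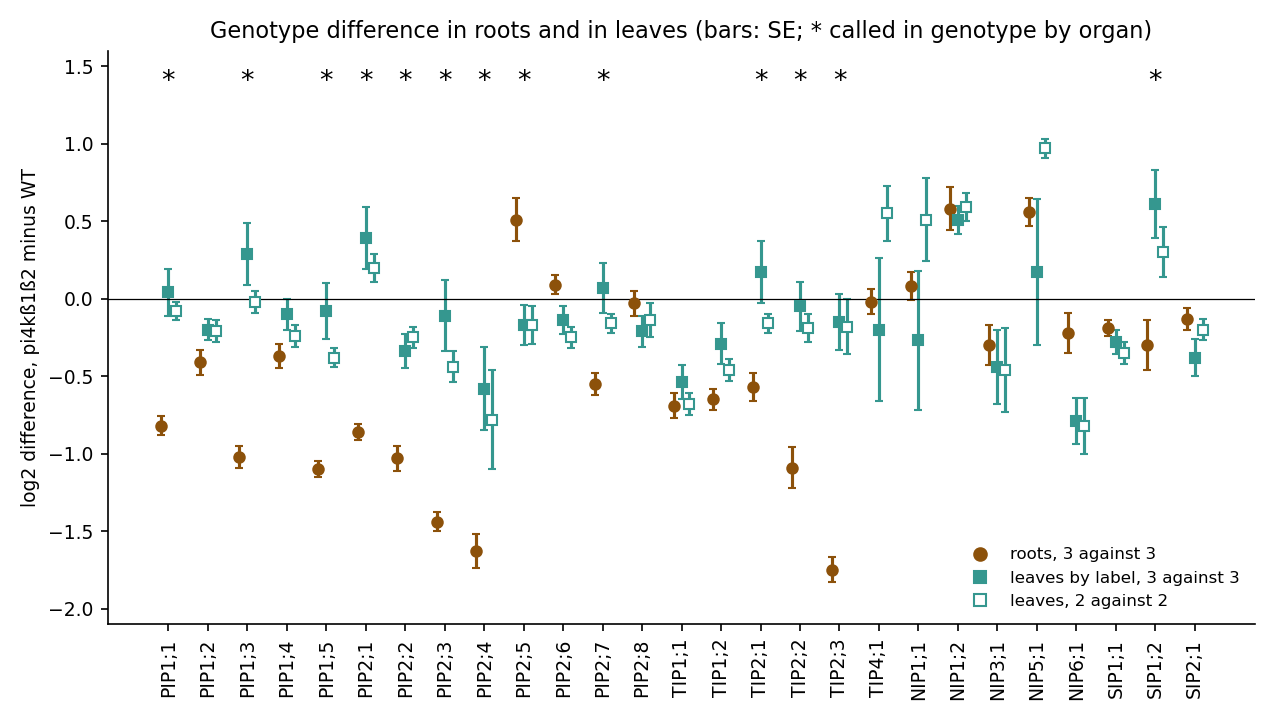
Log2 difference between *pi4kß1ß2* and WT (y axis) for 27 aquaporin genes in roots (circles), in leaves by label (filled squares) and in leaves without the 2 libraries that went against their labels (open squares), with standard errors as bars. Asterisks mark the 13 genes called in the test of roots against leaves. The root points of *PIP1;3* and *TIP2;3* lie far below their leaf points, while those of *NIP1;2* and *TIP1;1* lie close to them.

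Roots and leaves were then compared within each label. Among WT libraries, 14 of 27 aquaporin genes were higher in roots, 9 were lower and 4 were not called, where 36.3% and 37.4% of all 20291 genes were called (73.7% in all, edgeR). With scaling by library size alone, which moved the median log2 difference of all genes from -0.003 to 0.48, the counts were 17 and 5. Of all 20291 genes, 12116 were then higher and 4598 lower in roots. Among libraries labelled *pi4kß1ß2*, 10 of 28 genes were higher in roots, 12 were lower and 6 were not called (39.3% of all genes in each direction, 78.6% in all). With scaling by library size alone, 14 were higher and 6 lower, at a median of 0.57 over all genes. Of all 20413 genes, 12634 were then higher and 4727 lower in roots. Without the library that went against each label, 14 genes were higher and 9 lower in the WT comparison (38.5% and 37.6% of all genes, 76.1% in all), and 11 were higher and 12 lower in the *pi4kß1ß2* comparison (39.9% and 38.8%, 78.6% in all).

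The difference was largest for *PIP2;6* (AT2G39010), a PIP of leaf veins, with 20.5, 18.2 and 19.0 normalized CPM in WT against 395, 363 and 433 in leaves labelled WT. Leaf levels were thus 20.6-fold higher (log2 difference of roots minus leaves -4.37, SE 0.10, adjusted p = 8.99e-07, edgeR). Libraries labelled *pi4kß1ß2* gave 17.9-fold, with 19.6, 21.5 and 20.4 in roots and 394, 345 and 359 in leaves. *TIP2;1* was 2.67-fold higher in leaves labelled WT than in WT roots (log2 -1.42, SE 0.16, adjusted p = 0.000335) and 4.51-fold higher in leaves than in roots of the *pi4kß1ß2* label. *NIP6;1*, with 4.45, 3.71 and 3.75 normalized CPM in WT against 3.00, 3.92 and 3.32 in *pi4kß1ß2* roots, was lower in roots by 1.29 and 0.74, *PIP2;5* was lower in WT roots by 0.81, and *TIP1;2*, with 1865, 1427 and 1919 normalized CPM in leaves labelled WT and 1539, 1351 and 1431 in those labelled *pi4kß1ß2*, by 0.79 and 1.18. With scaling by library size alone *TIP1;2* was not called among WT libraries (-0.31, adjusted p = 0.0585) and *NIP6;1* not among those labelled *pi4kß1ß2* (-0.17, adjusted p = 0.352). *PIP1;5* (-1.62) and *PIP1;4* (-1.07) were among the 5 genes with the largest differences towards leaves within the *pi4kß1ß2* label, where *PIP1;4* had 102, 102 and 94.0 normalized CPM in roots and 235, 191 and 201 in leaves.

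On the root side, *TIP2;3* was 11.6-fold and *PIP2;4* 10.9-fold higher in WT roots than in leaves labelled WT (log2 3.54, SE 0.10, adjusted p = 1.18e-06, and 3.45, SE 0.25, adjusted p = 7.27e-05, edgeR). Within the *pi4kß1ß2* label the same genes were 3.78-fold and 5.19-fold higher in roots. *TIP4;1* had 8.43, 19.8 and 11.4 normalized CPM in leaves labelled WT and 5.64, 16.0 and 13.2 in those labelled *pi4kß1ß2*, and was higher in roots by 2.53 and 2.68 on the log2 scale. *NIP1;1*, with 17.9, 53.3 and 28.9 and 17.4, 35.4 and 31.8 normalized CPM in leaves, was higher in roots by 2.38 and 2.7. *TIP2;2* was higher in roots by 1.82 in WT and by 0.75 in the *pi4kß1ß2* label, and *NIP5;1* by 1.33 and 1.69. Under every alternative, all 14 genes that were higher in WT roots and all 10 that were higher in roots of the *pi4kß1ß2* label kept their calls.

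**Figure D4:**
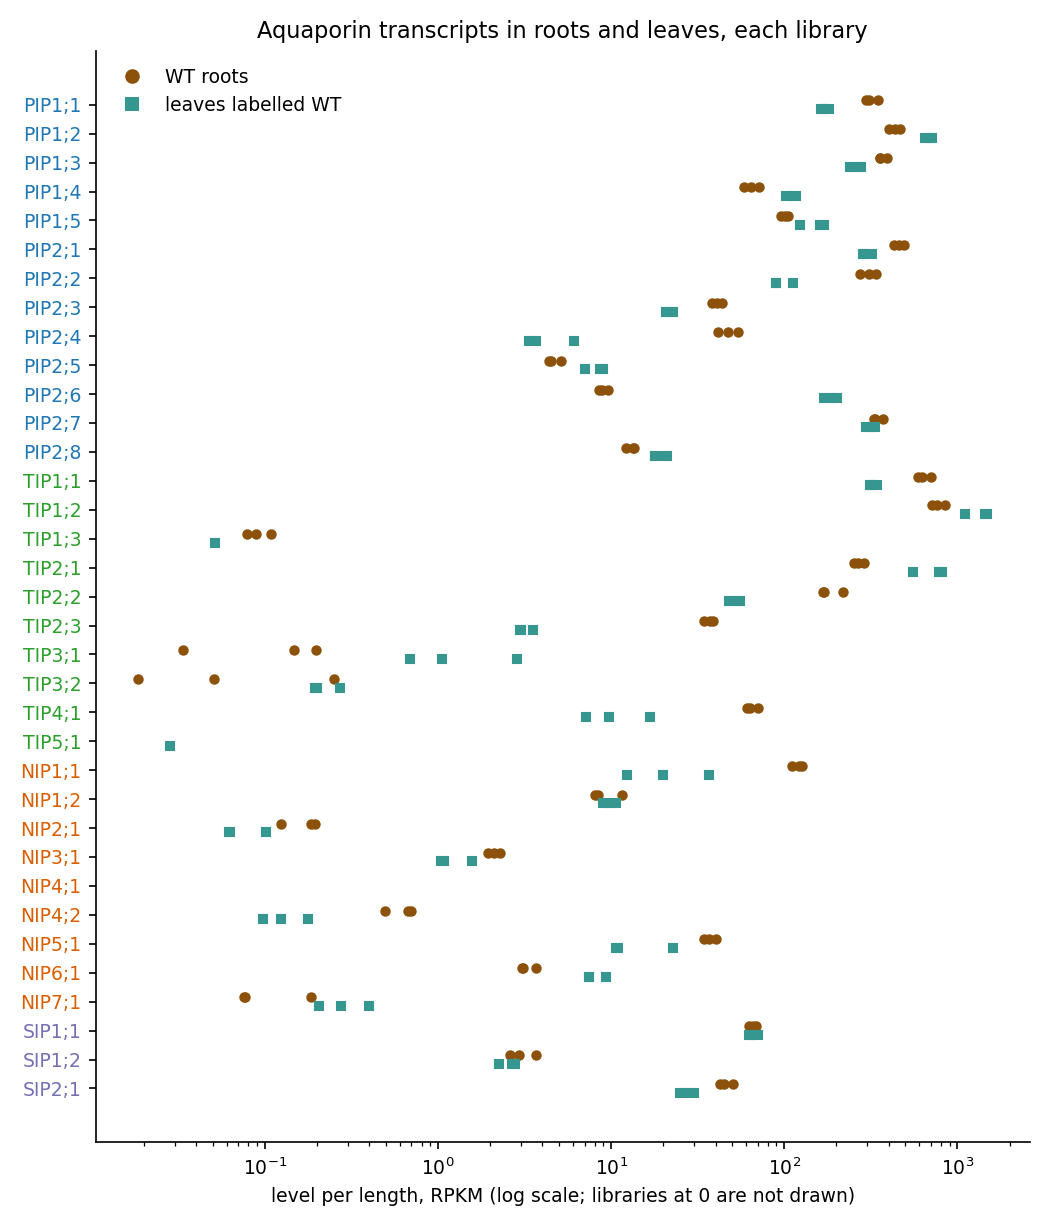
Level per length (RPKM, log axis) of the 35 aquaporin genes in each WT root library (circles) and each leaf library labelled WT (squares), with gene names coloured by subfamily. *TIP1;2* is the highest gene in both organs, *PIP2;6* and *TIP2;1* are shifted towards leaves and *TIP2;3*, *PIP2;4*, *TIP4;1* and *NIP1;1* towards roots.

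Per length, *TIP1;2* led in leaves too (1347 ± 209 RPKM by the WT label and 1117 ± 73.0 by the *pi4kß1ß2* label, SD, n = 3), followed by *TIP2;1* (720 ± 142 and 820 ± 170 RPKM) and by *PIP1;2* as the highest PIP (686 ± 34.7 and 605 ± 20.7 RPKM). In leaves *PIP1;2* had 1144, 1106 and 1035 normalized CPM by the WT label and 999, 933 and 968 by the *pi4kß1ß2* label, against 643, 698 and 745 in WT against 576, 481 and 506 in *pi4kß1ß2* roots. *SIP1;1* (65.8 ± 3.78 and 55.0 ± 3.22 RPKM) was again the highest SIP, with 83.7, 80.8 and 90.3 and 75.6, 70.2 and 67.4 normalized CPM. *NIP1;1* remained the highest NIP (23.0 ± 12.5 and 19.4 ± 6.55 RPKM), with a spread over leaf libraries of the same label that was wide.

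That spread was shared by other transcripts rich in roots. As a percentage of the WT root mean, *NIP1;1* stood at 10.3%, 30.7% and 16.6% by the WT leaf label and at 10%, 20.4% and 18.3% by the *pi4kß1ß2* leaf label. The summed root hair markers stood at 12.3%, 33.4% and 16.6% and at 8.65%, 18.1% and 19.9%, and *TIP4;1* at 11.1%, 25.9% and 15% and at 7.41%, 21% and 17.3%. WT leaf replicate 2 was the highest and *pi4kß1ß2* leaf replicate 1 the lowest for all 3. *TIP2;3* (6.77% to 9.56%) moved less among the leaf libraries. *PIP2;4* (5.22% to 12.8%) was highest in WT leaf replicate 3 and lowest in *pi4kß1ß2* leaf replicate 3. The part of root tissue in the leaf libraries was not tested, and all 5 root-rich genes were lower in every leaf library than in any WT root library.

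**Figure D5:**
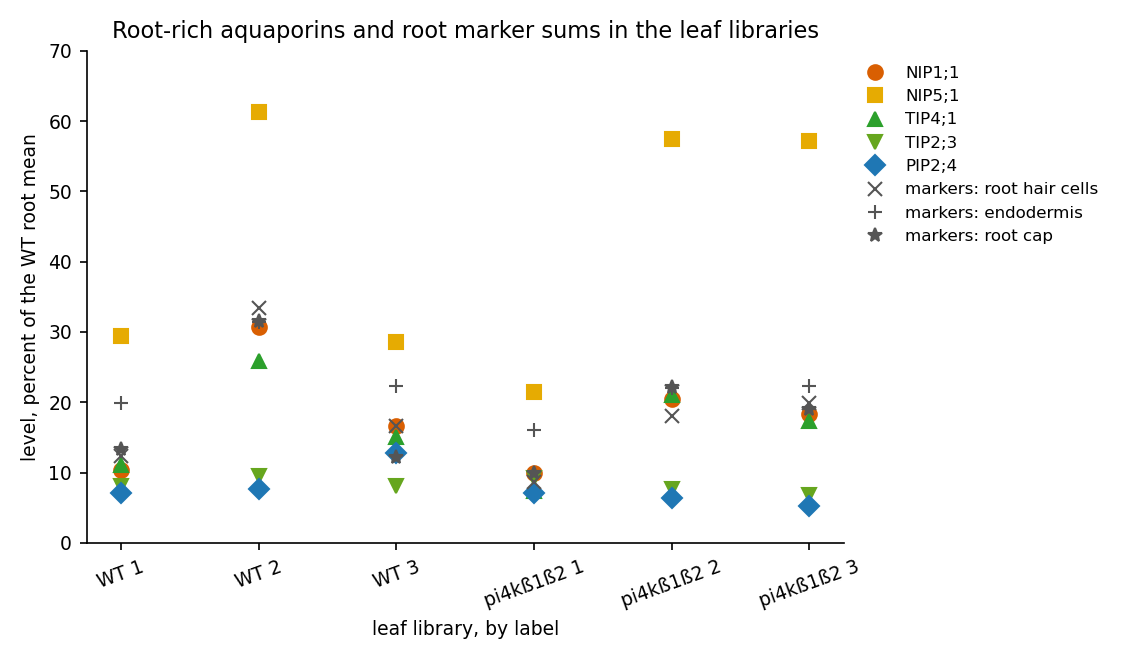
Level in each of the 6 leaf libraries, named by label, as a percentage of the WT root mean, for 5 aquaporin genes that are higher in roots and for the summed markers of root hair cells, endodermis and root cap. *NIP1;1* and *TIP4;1* lie near the root hair and root cap markers, highest in WT leaf replicate 2, *NIP5;1* lies above them between 21.4% and 61.3%, and *TIP2;3* and *PIP2;4* lie at or below 12.8%.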

How the data were processed

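Polyadenylated RNA was sequenced as stranded single reads. The authors trimmed the reads, removed ribosomal sequences, aligned them with STAR to TAIR10, and deposited raw gene counts, from which reads with multiple hits had been dropped. Only counts in the library's own orientation entered (95.0% to 96.8% of stranded counts), and 1.22% to 1.66% of reads had several hits. Genes reaching 1 CPM in 3 or more libraries of a comparison were tested with edgeR 4.0.16 in R 4.3.3 (TMM, robust quasi-likelihood fit, Benjamini-Hochberg adjustment over all genes, threshold 0.05). The likelihood ratio test, which the study used, DESeq2 1.42.0 and other settings were alternatives. Standard errors are the log2 difference divided by the root of F. Normalized CPM use TMM factors over all 12 libraries, and RPKM divide them by the exon length of the TAIR10.1 models (35 of 35 matched). The 35 genes and all gene lists were chosen with earlier results of these data known. Library values are given for genes called in roots at a log2 difference of at least 0.5 in size, called in leaves or between the organs' genotype differences, highest per length in a subfamily, or among the 5 largest organ differences in each direction, and at most 4 called genes are named per further list. P-values set a difference against the spread between the 3 libraries of the groups, with dispersions moderated over all genes. They do not cover the spread between mutant lines, as the mutant is a single line. The tests were tested on simulated counts with known changes. Floors cover counting error only, as reads without molecular identifiers are not independent molecules. Same-numbered libraries did not deviate together in every pair, and the numbers were not taken as pairs.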

Additional observations from a re-analysis of the deposited data

Results flagged for a closer look

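In 13 aquaporin genes the genotype difference itself differed between roots and leaves by label (interaction test of edgeR over 20765 genes, adjusted p under 0.05, 3 libraries per group). The values are the log2 difference in roots minus that in leaves. In 12 of the 13 genes all 3 *pi4kß1ß2* root libraries lay on 1 side of all 3 WT root libraries, the exception being *SIP1;2*. The test that picked these genes used the same root values, so this count is no separate support. Over all genes tested in roots, 21.1% lay above and 23.4% below without overlap. The values were -0.89 for *PIP1;1*, -1.33 for *PIP1;3*, -1.04 for *PIP1;5*, -1.27 for *PIP2;1*, -0.71 for *PIP2;2*, -1.35 for *PIP2;3*, -1.07 for *PIP2;4*, -0.64 for *PIP2;7*, -0.76 for *TIP2;1*, -1.07 for *TIP2;2*, -1.62 for *TIP2;3* and -0.93 for *SIP1;2*. For *PIP2;5* the value was 0.65. Of all genes tested, 22.4% were called. Among the leaf libraries on which these values rest, 2 went against their labels. Without them, *PIP2;4* (-0.86, adjusted p = 0.0887) and *SIP1;2* (-0.61, adjusted p = 0.0771) were not called.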

How the results depend on the processing

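In roots, 14 of the 16 lower calls and none of the 3 higher calls stood under every alternative. *NIP5;1* was lost in the fit of all 12 libraries, at 0.55. Over all genes, that fit called 638 higher and 1706 lower in roots, against 2233 and 3000 in the main fit. With a replicate left out in turn, 15 to 16 aquaporin genes were lower and 1 to 2 higher in roots (1 without WT root replicate 2), 0 to 3 lower and 0 to 1 higher in leaves by label, and 8 to 12 more negative and 0 to 1 more positive in the test of roots against leaves. Over all genes, the runs without a leaf replicate called 8 to 1310 lower and 4 to 909 higher in leaves by label. Those without a root replicate called 2333 to 2495 lower and 1415 to 1845 higher in roots. In the test of roots against leaves, the runs with a replicate left out called 1965 to 3099 genes more negative and 1295 to 2479 more positive. In leaves by label, 5 genes were lower and 2 higher in a fit of all 12 libraries, 1 lower with the replicate block, and 9 lower and 2 higher without the 2 libraries that went against their labels. Over all genes, the fit of all 12 libraries called 2853 lower and 2455 higher there, against 1317 and 724 in the main fit. The replicate block called 1034 and 649, and the run without the 2 libraries 2660 and 2480. In the test of roots against leaves, 2 genes were more positive with DESeq2, with the likelihood ratio test, with scaling by library size alone and without those 2 libraries, and 0 without a filter on low counts. Over all genes these runs called 2518, 2052, 2663, 2764 and 1596 more positive, in the same order, against 2135 in the main fit. With scaling by library size alone, 5 genes were lower in WT roots than in leaves and 6 in the *pi4kß1ß2* label, where 4598 and 4727 of all genes were. In the latter comparison *PIP1;1* (0.58), *PIP2;5* (0.42), *PIP2;7* (0.06), *PIP2;8* (0.12) and *NIP1;2* (0.54) then turned positive, and *PIP1;1* lay between -0.13 and 0.13 with a replicate left out. *NIP5;1* turned to -0.43 in the test of roots against leaves without the 2 libraries. The causes were not tested. Same-numbered root libraries deviated together with r = -0.03, 0.21 and 0.48, and the libraries share only a number. With the replicate block, 16 aquaporin genes were lower and 2 higher in roots (*PIP2;5* at 0.50, adjusted p = 0.0565, was lost), *NIP6;1* was lost in leaves by label (-0.79, adjusted p = 0.0511), and *TIP1;2* was gained in the test of roots against leaves (adjusted p = 0.0416). Without a filter on low counts, 15 genes were higher and 11 lower in WT roots than in leaves, and 11 and 13 in the *pi4kß1ß2* label. Over all genes, 7915 and 8204 were called in WT without the filter, and 8677 and 8727 in the *pi4kß1ß2* label. Precision is limited by 3 libraries per group.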
